A study of Homo sapiens with 9 samples.

Results

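The phagocyte NADPH oxidase was followed here through 5 of its genes, CYBA, CYBB, NCF1, NCF4 and RAC2, in RNA-seq of U937 cells, a human monocytic leukaemia line. Each gene was taken by its name in the deposited tables, where each name had 1 identifier in all 9 libraries, so that 5 of 60623 listed genes are described. The study compared 3 stable U937 lines made with retroviral doxycycline-inducible vectors. U937-AE carries the HA-tagged fusion AML1-ETO, U937-EG carries the HA-tagged fusion ETO2-GLIS2, and U937-CTR carries the empty vector and has the genotype label WT. Every line was sampled at 0, 12 and 48 h of 5 µg/ml doxycycline, with 1 library per line and time. Both fusion lines are single clones, the empty vector line received the same drug, and no condition has a replicate, so a difference between libraries cannot be told apart from a difference between cultures or clones.

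The oxidase makes superoxide from oxygen with electrons from NADPH, and it is known for the killing of microbes by neutrophils and monocytes. Its membrane core, cytochrome b558, is built from gp91phox, the electron-carrying subunit encoded by CYBB, and p22phox, its stabilising partner encoded by CYBA. On activation cytosolic subunits that include p47phox (NCF1) and p40phox (NCF4) move to the membrane together with the small GTPase RAC2, and inherited loss of a subunit causes chronic granulomatous disease.

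Expression is given as FPKM, reads on a gene scaled by the length of its exons and by the library total, and levels are compared between genes only on this scale. A change is a log2 fold change of FPKM + 0.01. With 1 library per condition there was no test, and a gene was called higher or lower when it passed 2-fold with a mean of at least 1 FPKM over the 2 libraries. Brackets give 95% intervals from the exact binomial comparison of the reads behind the values. They cover counting error only, and the reads carry no molecular identifiers, so they are not independent molecules.

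The promoters of CYBB and NCF1 are printed because both genes are low in these cells and are the members called in the ETO2-GLIS2 line at 12 h, and because both windows hold the letters bound by the myeloid factor PU.1. They are the 250 bases before the annotated start in RefSeq (GRCh38.p14), CYBB at chrX:37779809-37780058 and NCF1 at chr7:74773761-74774010, both on the plus strand, 5′ to 3′. Capitals mark the PU.1 letters GAGGAA in CYBB and GAGGAAGT in NCF1, read on the other strand.
CYBB: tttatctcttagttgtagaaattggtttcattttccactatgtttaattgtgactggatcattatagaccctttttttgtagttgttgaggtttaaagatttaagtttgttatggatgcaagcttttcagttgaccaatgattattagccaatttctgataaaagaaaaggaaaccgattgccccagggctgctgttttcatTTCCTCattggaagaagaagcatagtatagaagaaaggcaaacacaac
NCF1: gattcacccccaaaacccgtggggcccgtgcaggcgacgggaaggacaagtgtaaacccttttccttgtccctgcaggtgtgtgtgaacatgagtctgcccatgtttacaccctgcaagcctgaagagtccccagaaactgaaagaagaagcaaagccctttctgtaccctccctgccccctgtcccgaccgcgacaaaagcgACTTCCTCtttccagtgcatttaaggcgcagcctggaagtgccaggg
The match in CYBB began 48 bases before the start, and that in NCF1 47 bases before it for the longer motif, which contains the shorter. On both strands, GAGGAA stood in 23.6% and GAGGAAGT in 2.17% of 35116 RefSeq windows of the same length. The third window at hand, that of CYBA (chr16:88651054-88651303, minus strand), was 73.6% G or C against 34.0% in CYBB and 56.4% in NCF1, and held neither. The Runt letters TGTGGT and TGCGGT, present in 11.0% and 5.84% of windows, and the GLIS letters TGGGGGGT, present in 1.33%, were in none of the 3 windows. These matches are descriptions of the letters only.

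The 9 libraries held 15136414 to 18443658 reads on genes. The induced transcripts followed the labels: RUNX1T1, which gives AML1-ETO its ETO part, went from 0.512 to 22.2 and 28.7 FPKM in U937-AE, and GLIS2 went from 2.39 to 6.79 and 8.85 FPKM in U937-EG. GLIS2 was also present in the lines without ETO2-GLIS2, at 3.64 to 4.76 FPKM in U937-CTR and 2.47 to 5.60 FPKM in U937-AE. Of 9 monocyte markers 7 reached 1 FPKM, with CD14 and CD68 under 1 FPKM in every library, and no erythroid, megakaryocyte or stromal marker reached 1 FPKM. Mitochondrial genes took 20.9% to 23.5% of summed FPKM at 0 h and 8.82% to 15.5% at 48 h, and the median change of all genes from 0 h was 0.11 to 0.22, in favour of the later time, in the 6 comparisons with 0 h.

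CYBA, NCF4 and RAC2 were among the more abundant transcripts of these cells, whereas CYBB and NCF1 were low. CYBA exceeded 93.7% to 97.9% of the genes detected in each library and NCF4 exceeded 91.6% to 98.5%. CYBB exceeded 30.8% to 59.1% and NCF1 34.6% to 70.5%. RAC2 exceeded at least 96.9% of detected genes in 8 libraries and 61.0% in U937-AE at 48 h. The membrane core was thus unequal at the RNA level, with 17.8 to 111 times as much CYBA as CYBB per length, lowest in U937-EG at 12 h and highest in U937-AE at 48 h. The summed level of the 5 genes was 119.9 FPKM at 0 h and 238.5 at 48 h in U937-CTR, and 136.7 and 262.9 FPKM in U937-EG, whereas in U937-AE it was 145.4 FPKM at 0 h, 175.4 at 12 h and 101.6 at 48 h.

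**Figure D1:**
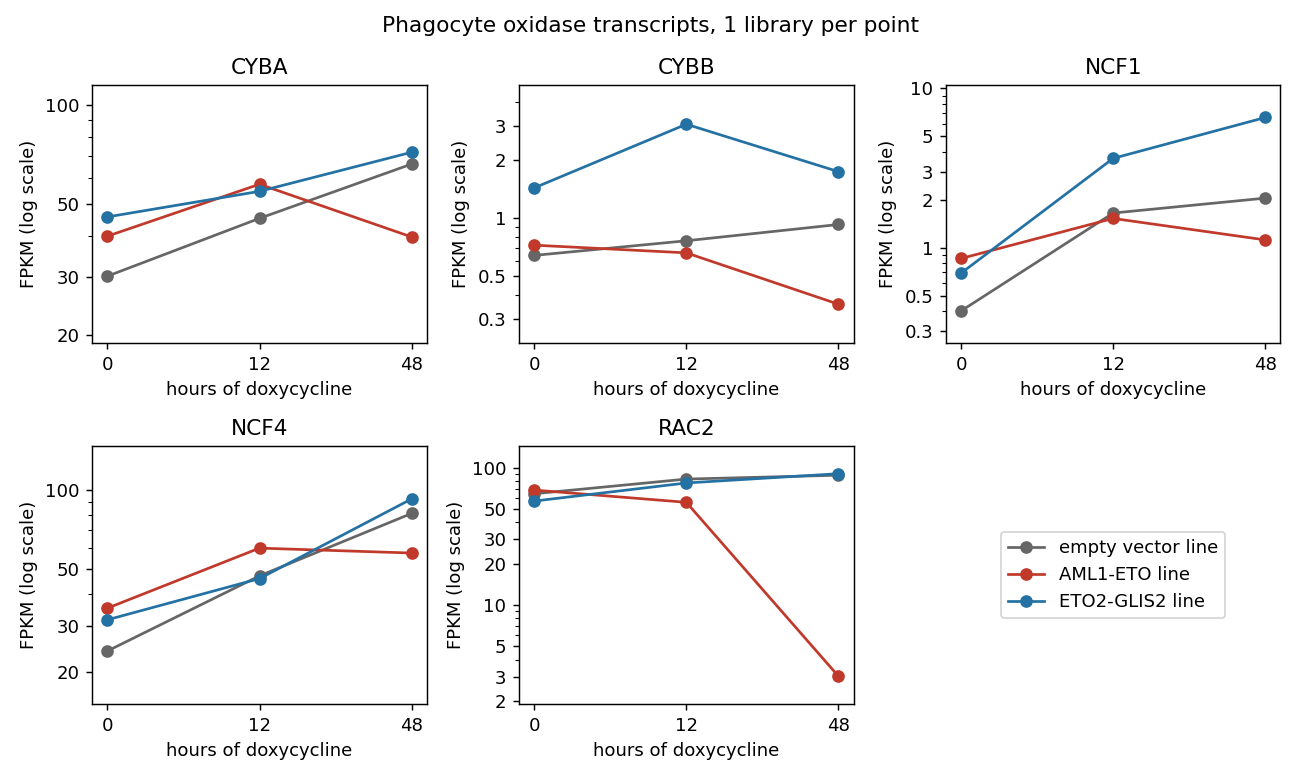
Level (FPKM, log axis) of the 5 oxidase genes against hours of doxycycline; each point is 1 library and the lines join the libraries of a cell line, so there are no error bars. RAC2 drops from 55.9 to 3.02 FPKM between 12 and 48 h in U937-AE.

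CYBA (ENSG00000051523; chr16:88643289-88651053, GRCh38.p14), the p22phox gene, was higher at each later time in the empty vector line and in U937-EG, but in U937-AE it was back at its uninduced level by 48 h. It measured 30.2, 45.2 and 66.1 FPKM in U937-CTR at 0, 12 and 48 h. In U937-AE it measured 40.0, 57.4 and 39.7 FPKM. In U937-EG it measured 45.7, 54.6 and 71.8 FPKM. At 48 h the U937-AE library was therefore the lowest of the 3 lines, although at 0 h the empty vector library had been the lowest. The change at 48 h was 1.13 (1.04 to 1.22) in U937-CTR, a call of higher, and 0.65 (0.58 to 0.72) in U937-EG, under the threshold. In U937-AE it was -0.01 (-0.10 to 0.08), a sign that depends on the scaling: with FPKM rescaled to the same total in every library (TPM) it was 0.14. Between 12 and 48 h, CYBA in U937-AE changed by -0.53 (-0.61 to -0.45).

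CYBB (ENSG00000165168; chrX:37780059-37813461), the gp91phox gene, was highest in U937-EG at every time and lowest in U937-AE at 48 h. Its levels were 0.639, 0.762 and 0.925 FPKM in U937-CTR, resting on 46 to 63 reads. In U937-AE they were 0.723, 0.659 and 0.357 FPKM, from 53, 45 and 24 reads. In U937-EG they were 1.43, 3.07 and 1.74 FPKM, from 117, 243 and 126 reads. Before induction U937-EG was already 1.15 (0.66 to 1.69) above the empty vector line, a call of higher. At 12 h CYBB in U937-EG was called higher than at 0 h, by 1.09 (0.77 to 1.43), and at 48 h it stood 0.28 (-0.09 to 0.66) above 0 h, an interval that holds 0. Against the empty vector line CYBB in U937-EG was called higher at 12 h, by 2.0 (1.57 to 2.48), and at 48 h the difference was 0.90 (0.46 to 1.37), under the threshold. In U937-AE the change at 48 h was -1.0 (-1.78 to -0.30), but the mean of both libraries was under 1 FPKM, so no call was made. The difference from the empty vector line at 48 h was -1.35 (-2.12 to -0.68), also under the filter.

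NCF1 (ENSG00000158517; chr7:74774011-74789315), the p47phox organiser subunit, showed the largest rise of the 5 genes in U937-CTR and in U937-EG. In U937-CTR it measured 0.401, 1.65 and 2.05 FPKM at 0, 12 and 48 h, from 23, 88 and 111 reads. In U937-AE it measured 0.856, 1.53 and 1.12 FPKM, from 50, 83 and 60 reads. In U937-EG it measured 0.693, 3.63 and 6.56 FPKM, from 45, 229 and 378 reads. The order of U937-AE and the empty vector line thus changed with time. At 0 h U937-AE was above it by 1.07 (0.35 to 1.87), with a mean under 1 FPKM, and at 48 h U937-AE was the lowest of the 3 lines. At 12 h U937-AE differed from the empty vector line by -0.11 (-0.56 to 0.34), an interval that holds 0. U937-AE also had the highest value at 0 h, but its difference from U937-EG there was within counting error (-0.30 to 0.92). In U937-EG NCF1 was called higher at 12 h, by 2.37 (1.93 to 2.89), and at 48 h, by 3.23 (2.80 to 3.72), and 108 of 11696 genes with a mean of at least 1 FPKM rose further at 48 h. In U937-CTR it was called higher at both times too, by 2.01 (1.36 to 2.77) and 2.32 (1.69 to 3.07). In U937-AE the change was 0.83 (0.31 to 1.37) at 12 h and 0.38 (-0.18 to 0.96) at 48 h, the second with a mean under 1 FPKM. At 48 h U937-EG was called higher than the empty vector line by 1.68 (1.37 to 2.0), and U937-AE differed from it by -0.87 (-1.35 to -0.41), under the threshold.

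NCF1 has 2 near-identical copies on the same chromosome, NCF1B (chr7:73220639-73235945) and NCF1C (chr7:75156578-75171998), and reads that match several copies could have been split or lost in the counting. The values of any 1 copy are therefore uncertain, and the summed reads were compared as well. The 3 copies together had 63, 213 and 321 reads in U937-CTR, 128, 188 and 115 in U937-AE, and 132, 637 and 1014 in U937-EG. Their sum changed by 2.43 (2.04 to 2.84) in U937-CTR and by 3.11 (2.85 to 3.39) in U937-EG at 48 h, close to NCF1 alone. In U937-AE the sum changed by -0.03 (-0.41 to 0.34), where NCF1 alone had a positive value of 0.38. Against the empty vector line at 48 h the sum differed by -1.46 (-1.78 to -1.15) in U937-AE and by 1.57 (1.39 to 1.76) in U937-EG. NCF1 held 34.1% to 44.1% of the reads of the 3 copies in 8 libraries and 52.2% (Wilson 95% interval 43.1% to 61.1%) in U937-AE at 48 h. Other annotated genes on the same strand cover 89.7% of the exon bases of NCF1B, so its part of the sum is the least certain.

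**Figure D2:**
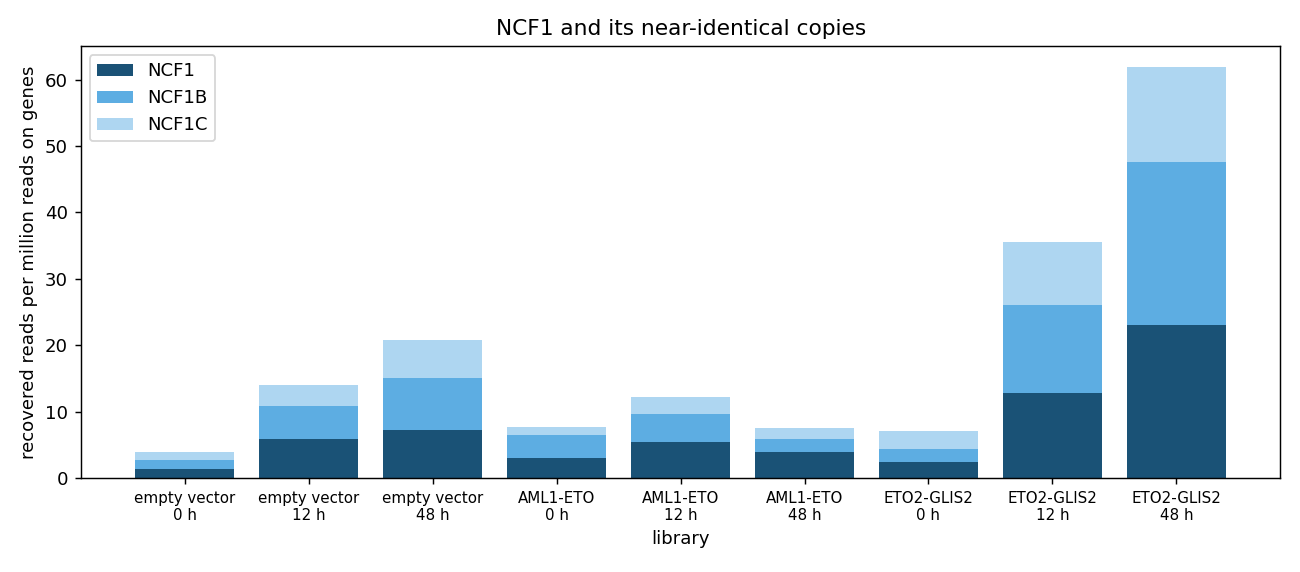
Recovered reads of NCF1, NCF1B and NCF1C, scaled to the library's reads on genes and stacked, in each of the 9 libraries (1 bar per library, no error bars). All 3 copies add to the tallest bars, those of U937-EG at 12 and 48 h, where their reads sum to 637 and 1014.

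NCF4 (ENSG00000100365; chr22:36861006-36878015), the p40phox regulatory subunit, was higher at 12 and 48 h than at 0 h in all 3 lines, with the smallest change at 48 h in U937-AE. Its levels were 24.1, 46.9 and 81.3 FPKM in U937-CTR at 0, 12 and 48 h. They were 35.2, 59.9 and 57.3 FPKM in U937-AE. They were 31.8, 45.7 and 92.4 FPKM in U937-EG. NCF4 was called higher at 48 h in U937-CTR, by 1.75 (1.64 to 1.86), and in U937-EG, by 1.54 (1.45 to 1.63). In U937-AE the change was 0.76 (0.66 to 0.87) at 12 h and 0.70 (0.60 to 0.80) at 48 h, both under the threshold, and between these times it was -0.06 (-0.15 to 0.03). At 48 h U937-AE differed from the empty vector line by -0.50 (-0.59 to -0.42). A gene on the opposite strand overlaps 1.21% of the exon bases of NCF4, and the library kit does not mark strand.

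RAC2 (ENSG00000128340; chr22:37225270-37244269), the blood-cell GTPase of the complex, fell 18.5-fold in U937-AE between 12 and 48 h. In U937-CTR it measured 64.5, 82.5 and 88.1 FPKM at 0, 12 and 48 h. In U937-EG it measured 57.1, 77.3 and 90.3 FPKM. In U937-AE it measured 68.7, 55.9 and 3.02 FPKM, from 2872, 2176 and 116 reads. The U937-AE library at 48 h lay far below all the others, and the other 8 spanned 55.9 to 90.3 FPKM. The change in U937-AE was -0.30 (-0.38 to -0.22) at 12 h and -4.50 (-4.79 to -4.24) at 48 h, a 22.7-fold fall and a call of lower, and 81 of 12030 genes (0.673%) fell further. Against the empty vector line RAC2 in U937-AE differed by 0.09 (0.01 to 0.17) at 0 h, by -0.56 (-0.64 to -0.48) at 12 h and by -4.86 (-5.14 to -4.60) at 48 h, the last a 29.1-fold lower level. In U937-EG the changes were 0.44 (0.36 to 0.51) and 0.66 (0.59 to 0.73), against 0.36 (0.28 to 0.43) and 0.45 (0.38 to 0.52) in U937-CTR, all under the threshold. The monocyte markers, summed, were also lowest in the U937-AE library at 48 h, at 287 FPKM against 624 to 1778 FPKM elsewhere. In the other 8 libraries most of that sum is LYZ, the lysozyme gene. LYZ was at 45.1 FPKM in U937-AE at 48 h against 332 to 1517 FPKM elsewhere. Without LYZ the sum was 242 FPKM, inside the 213 to 292 FPKM of the other 8 libraries. Most of this remainder is CD4, at 191 FPKM there, so it says little about the other markers. CSF1R, at 0.0128 against 0.187 to 1.55 FPKM, and ITGAM, at 0.832 against 1.01 to 11.5 FPKM, were also lowest there. CD33, FCGR1A and LYN were not. Mitochondrial genes took their lowest share in the same library, 8.82%. The part of LYZ and of the mitochondrial share in the RAC2 result was not tested. In bulk RNA, fewer cells with a transcript and less of it per cell cannot be told apart.

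RAC2 has close relatives, RAC1, which is made in most cell types, and RAC3, and they did not follow it equally. RAC1 measured 81.6, 83.9 and 100.06 FPKM in U937-AE, a change of 0.29 (0.23 to 0.35) at 48 h. RAC3 measured 71.3, 81.1 and 31.5 FPKM, a change of -1.18 (-1.31 to -1.05), called lower. RAC2 made up 25.3% to 38.2% of the summed FPKM of the 3 genes in 8 libraries and 2.25% in U937-AE at 48 h. RAC1 was 1.10 to 1.64 times RAC2 in those 8 libraries and 33.1 times in the U937-AE library at 48 h.

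Counted over the 5 genes, U937-CTR had 1 of 4 genes over the filter called higher at 12 h (NCF1), where 5.64% of all 11694 genes were, and 3 of 4 at 48 h (CYBA, NCF1 and NCF4), where 8.00% of 11624 were. Doxycycline and time in culture, which cannot be told apart in the empty vector line, thus went with higher levels of these genes without a fusion. In U937-AE none of 4 was called higher at 12 h, where 6.57% of all genes were, or lower, where 2.39% were. At 48 h none of 3 was called higher, against 17.3% of all genes, and 1 of 3 was called lower (RAC2), against 11.3%. In U937-EG 2 of 5 were called higher at 12 h (CYBB and NCF1), against 3.03% of all genes, and 2 of 5 at 48 h (NCF1 and NCF4), against 10.8%. Against the empty vector line, U937-EG had 1 of 4 called higher at 0 h (CYBB), 2 of 5 at 12 h (CYBB and NCF1) and 1 of 5 at 48 h (NCF1), where 3.42%, 2.57% and 4.15% of all genes were. U937-AE had 1 of 4 called lower than the empty vector line at 48 h (RAC2), where 11.7% of all genes were. NCF1 alone was under the threshold there, but the summed reads of its 3 copies were past 2-fold lower, by -1.46 (-1.78 to -1.15). The median change at 48 h was 1.44 in U937-CTR, -0.01 in U937-AE and 0.66 in U937-EG, where the medians of all genes were 0.16, 0.22 and 0.16. These medians are over the genes that passed the filter, 4 in U937-CTR, 3 in U937-AE and 5 in U937-EG. CYBB was left out in U937-CTR, and CYBB and NCF1 in U937-AE. The medians of the 3 lines are thus over different genes and are not directly comparable. The filter also shaped the counts of calls. NCF1 was at 0.401 to 0.856 FPKM at 0 h, so in comparisons with 0 h it passed only through a higher later library. At 48 h NCF1 was dropped in U937-AE, and so was CYBB, which went there from 0.723 to 0.357 FPKM. CYBB in U937-EG against the empty vector line at 0 h passed through 1.43 against 0.639 FPKM. With the filter and counts this small, a share of 1 gene in 3 or 4 says little about the set.

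**Figure D3:**
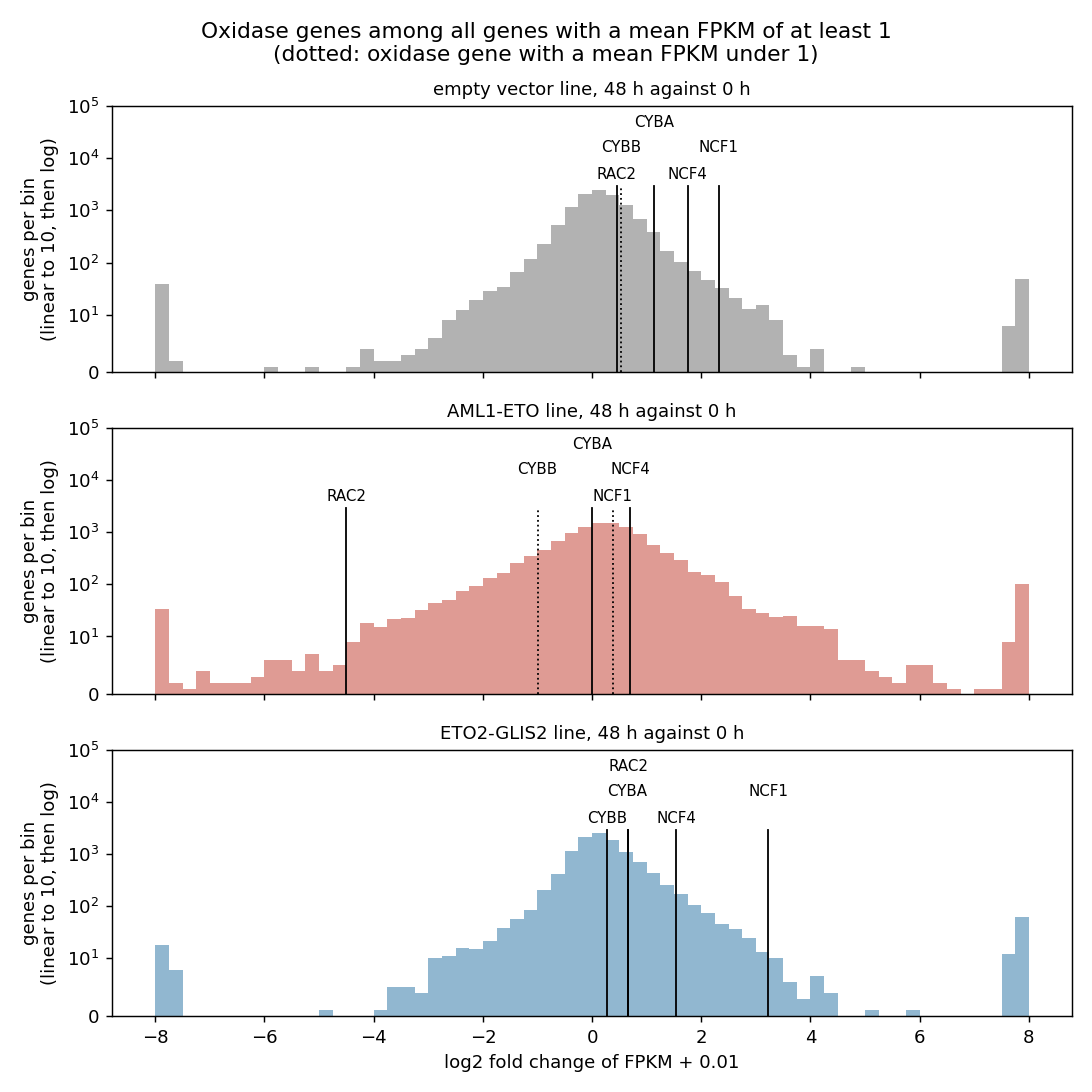
Number of genes per bin of log2 fold change from 0 to 48 h (axis linear to 10, then log) in each line, among genes with a mean of at least 1 FPKM; the end bins also hold genes beyond 8 on either side. Vertical lines place the 5 oxidase genes, dotted where their mean was under 1 FPKM; RAC2 in U937-AE lies in the far left of the spread and NCF1 in U937-EG in the far right.

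With the change of the empty vector line subtracted, all 5 genes were lower in U937-AE at 48 h. The difference of changes was -1.14 (-1.26 to -1.01) for CYBA, -1.53 (-2.41 to -0.64) for CYBB, -1.94 (-2.78 to -1.09) for NCF1 and -1.05 (-1.20 to -0.90) for NCF4. For RAC2 it was -4.95 (-5.23 to -4.67). At 12 h the same differences were -0.06 (-0.18 to 0.06) for CYBA, -0.38 (-1.19 to 0.43) for CYBB, -1.19 (-2.02 to -0.35) for NCF1, -0.19 (-0.35 to -0.04) for NCF4 and -0.65 (-0.76 to -0.54) for RAC2. The changes of NCF1 and RAC2 in U937-AE were thus the furthest from those in the vector line at 12 h. For NCF1 the level in U937-AE differed from the vector line by only -0.11 (-0.56 to 0.34) at 12 h. At 0 h it was 1.07 (0.35 to 1.87) above the vector line, which had 23 reads there. In U937-EG at 12 h the differences of changes were 0.84 (0.19 to 1.5) for CYBB and 0.36 (-0.44 to 1.17) for NCF1. They were -0.32 (-0.44 to -0.21) for CYBA, -0.43 (-0.59 to -0.28) for NCF4 and 0.08 (-0.02 to 0.19) for RAC2. The intervals of NCF1 and RAC2 hold 0. In U937-EG at 48 h the difference was 0.90 (0.12 to 1.69) for NCF1 and 0.21 (0.11 to 0.32) for RAC2. It was -0.48 (-0.59 to -0.37) for CYBA, -0.21 (-0.36 to -0.07) for NCF4 and -0.25 (-0.91 to 0.41) for CYBB. Intervals here are 1.96 counting standard errors, and both fusion lines share the same empty vector libraries.

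Set against each other, the fusion lines differed in each of the 5 genes at 48 h by more than counting error. The change in U937-AE minus that in U937-EG was -0.66 (-0.77 to -0.55) for CYBA, -1.28 (-2.06 to -0.49) for CYBB and -2.84 (-3.54 to -2.14) for NCF1. It was -0.84 (-0.97 to -0.70) for NCF4 and -5.16 (-5.44 to -4.89) for RAC2. At 12 h CYBA and NCF4 had differed the other way, by 0.27 (0.16 to 0.37) and 0.24 (0.10 to 0.38). Whether these differences exceed those between cultures could not be tested with 1 library per condition.

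Ordered by level over the 9 libraries, CYBA, NCF4 and NCF1 were all highest in U937-EG at 48 h and all lowest in U937-CTR at 0 h. CYBB was highest in U937-EG at 12 h and lowest in U937-AE at 48 h, and RAC2 was highest in U937-EG at 48 h and lowest in U937-AE at 48 h, with the empty vector library at 48 h within counting error of its highest. Of the 8 neighbouring pairs in each order, 3 did not differ beyond counting error for CYBA, 5 for CYBB, 5 for NCF1, 2 for NCF4 and 2 for RAC2. Pearson's r of log2(FPKM + 0.01) over the 9 libraries was 0.86 between CYBA and NCF1, 0.86 between CYBA and NCF4, and 0.82 between NCF1 and NCF4. It was 0.60 between CYBB and RAC2, 0.12 between CYBB and NCF4 and -0.04 between RAC2 and NCF4. Without the U937-AE library at 48 h, a choice made after seeing the data, the values with RAC2 were 0.32 for CYBB and 0.62 for NCF4, and the 3 among CYBA, NCF1 and NCF4 were 0.85 to 0.95. The libraries share clones and times and are not independent, so these are descriptions only.

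Among 4705 genes (4706 for CYBB and NCF1) with a mean of at least 10 FPKM, the genes most like CYBA over the 9 libraries were SFT2D1 (r = 0.99), SMIM3 (0.97) and CD151 (0.97). Those most like CYBB were ANXA5 (0.96), ATG3 (0.96) and LCP1 (0.95). For NCF1 they were ALOX5AP (0.95), which serves leukotriene synthesis, CTSB (0.94), a lysosomal protease, and FAR1 (0.93). For NCF4 they were S100P (0.98), RMDN3 (0.96) and ZNF83 (0.96). For RAC2 they were MYO1G, FES and TNFRSF1B, each above 0.99, and in U937-AE MYO1G went from 47.3 to 35.3 and 1.36 FPKM. The lists depended on the measure and on the U937-AE library at 48 h. By Spearman's rho the genes of RAC2 ranked 1 (TNFRSF1B), 19 (FES) and 56 (MYO1G), and those of CYBB 37 (ATG3), 56 (ANXA5) and 115 (LCP1). Without that library Pearson's r with RAC2 was 0.98 for TNFRSF1B, 0.94 for FES and 0.89 for MYO1G, which then ranked 1, 22 and 65.

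The regulators of the oxidase were described from lists of kinases, exchange factors, transcription factors and redox enzymes, 68 genes in all with CYBC1, RAP1A, the other RAC genes and the NCF1 copies. At 48 h 5 were called higher and none lower of 52 over the filter in U937-CTR, 3 higher and 10 lower of 51 in U937-AE, and 3 higher and 2 lower of 52 in U937-EG. The copies NCF1B and NCF1C made up 2 of the 5 called higher in U937-CTR and 2 of the 3 in U937-EG. Those counts thus partly repeat NCF1. Of all genes over the filter, 8.00% were called higher and 2.99% lower in U937-CTR, 17.3% and 11.3% in U937-AE, and 10.8% and 2.54% in U937-EG. The medians of the listed genes were 0.13, -0.10 and 0.10. Of 18 kinases, exchange factors and inhibitors over the filter, 5 were called lower in U937-AE and none higher, with a median of -0.53. VAV1, an exchange factor that loads RAC proteins with GTP, went from 18.4 to 14.1 and 3.03 FPKM in U937-AE, a change of -2.59 (-2.82 to -2.38). PRKCD, a protein kinase C that phosphorylates p47phox, went from 58.7 to 24.8 and 10.6 FPKM, a change of -2.47 (-2.61 to -2.35), and PREX1, another RAC exchange factor, changed by -1.43 (-1.52 to -1.34). PAK1, at -1.07, and TIAM1, at -1.03, lay just past the threshold in U937-AE. TIAM1 was nearly confined to this line, also before induction. It measured 3.46, 3.09 and 1.69 FPKM in U937-AE and at most 0.0464 FPKM in the other lines. The chaperone CYBC1, needed for stable cytochrome b558, changed by 0.57 in U937-CTR, 0.05 in U937-AE and 0.62 in U937-EG, and was not called.

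Of 13 transcription factors known to act on oxidase genes, 12 passed the filter in U937-AE at 48 h. Of these, 3 were called lower (SPI1, IRF8 and CEBPA), against 11.3% of all genes, and 1 higher (CEBPE), against 17.3%. In U937-EG 2 of 13 were called lower (IRF8 and CEBPA) and 1 higher (IRF1), against 2.54% and 10.8%. In U937-CTR 2 of 13 were called higher (CEBPB and CEBPE), against 8.00%, and none lower, against 2.99%. IRF8, an interferon regulatory factor that partners PU.1, went from 91.9 to 52.6 and 9.82 FPKM in U937-AE, a change of -3.23 (-3.34 to -3.12). It was called lower in U937-EG as well, with a change of -1.92 (-2.01 to -1.84), and its change in U937-CTR was -0.80 (-0.85 to -0.74). CEBPE, a late granulocyte factor, was called higher in U937-AE, by 1.19 (0.98 to 1.40), and in U937-CTR, by 1.10 (0.83 to 1.38). CEBPA changed by -3.89 in U937-AE and by -1.0 in U937-EG, but 43.9% of its exon bases are covered by genes on the opposite strand. Whether these factors act on the 5 oxidase genes in these cells was not tested.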

How the data were processed

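Total RNA of the 9 libraries was sequenced with a TruSeq kit that does not mark strand. The submitters' processing notes list HISAT2 (2.0.5), SAMtools (1.7), HTSeq (0.9.1), DESeq2 (1.22.2, with no role given) and the build hg38; the annotation version and the exon length are not given in the sources used here. The authors deposited FPKM per gene for each library, and no counts. Whole reads were recovered from the steps of the FPKM values: of 60623 genes listed, 23889 were above 0 in at least 3 libraries, and in 23868 of these (99.9%) every value was a whole number of reads within the rounding of the 6 deposited digits (at most 0.125 of a read off), and on simulated data 99.9% of 5912 genes came out exact. Libraries were grouped by their titles. Changes were computed in Python (3.11.15) with numpy (2.4.6), pandas (2.3.3), scipy (1.17.1) and matplotlib (3.10.9). The text names the 5 oxidase genes, genes of the partner lists, the NCF1 copies and the 3 genes most like each member. Members and lists were chosen with earlier results of these data known. Coordinates and promoters are RefSeq's (GRCh38.p14), which held promoters for 3 of the 5 members; exon overlaps were measured on GENCODE v44lift37. Alternatives were another pseudocount, scaling, filter and fold threshold, subtraction of the empty vector line, and rescaling without mitochondrial genes and correlations without U937-AE at 48 h, both added after the data were seen. Some genes of the lists are not reported here.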

Additional observations from a re-analysis of the deposited data

Results flagged for a closer look

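RAC2 and CYBB moved in opposite directions in U937-AE and in both other lines, at 12 and at 48 h, which singled them out. For RAC2 the change at 48 h in U937-AE was lower than that in U937-EG by a log2 difference of -5.16, and than that in the empty vector line by -4.95. For CYBB the differences were -1.28 and -1.53, on levels between 0.357 and 1.74 FPKM at 48 h. With 1 library per condition neither difference was tested, and the changes of CYBB in U937-AE at 12 h, in U937-EG at 48 h and in U937-CTR at both times had counting intervals that held 0.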

How the results depend on the processing

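No paired analysis was possible because each comparison sets 1 library against 1 other and the 3 lines carry different constructs, so they are not replicates of a condition; leaving out a library removes a side of its comparisons. No result changed direction past a call, but the small counts of members called depended on the settings. In U937-CTR at 12 h, 1 gene was called higher; this became 0 with a pseudocount of 1 FPKM or a mean of at least 5 FPKM, and 2 as TPM or with a fold threshold of 1.5. In U937-AE at 12 h, 0 became 2 called higher at 1.5-fold, and 0 became 1 called lower with the empty vector line subtracted. In U937-AE at 48 h, 0 called higher became 1 at 1.5-fold, and 1 called lower became 3 with the empty vector line subtracted. In U937-EG at 12 h, 2 called higher became 1 with a pseudocount of 1 FPKM, 0 with a mean of at least 5 FPKM, 1 with genes past 2-fold in U937-CTR left out and 0 with that line subtracted. In U937-EG at 48 h, 2 became 1 with a mean of at least 5 FPKM, 4 at 1.5-fold, and 0 with those genes left out or the line subtracted. Without a filter, partner genes called at 48 h went from 5 to 11 higher and 0 to 1 lower in U937-CTR, from 3 to 8 higher in U937-AE and from 3 to 8 higher in U937-EG. Of 222 log2 values under other settings, 46 moved by more than their counting interval; those of CYBA and NCF1 in U937-AE at 48 h also changed sign, to 0.14 as TPM and to -0.03 with the copies summed, and neither was called. CYBB and NCF1 rest on 23 to 378 reads a library, which limits their precision. Of the 3 genes most like each member, the top 3 by Spearman's rho kept 2 for CYBA, 0 for CYBB and 1 each for NCF1, NCF4 and RAC2; without the U937-AE library at 48 h, chosen after seeing the data, they kept 0 for CYBB and NCF1 and 1 for each other member. Rescaling without mitochondrial genes was chosen after seeing the data and changed no count of members called.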

Other observations

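Other NADPH oxidases and the enzymes that supply or remove its products were measured as well. Of 10 other oxidase and organiser genes, NOXA1, an activator of NOX1, alone passed the filter. It measured 2.34, 5.08 and 7.01 FPKM in U937-CTR, 4.46, 6.99 and 5.80 FPKM in U937-AE, and 2.65, 3.63 and 5.28 FPKM in U937-EG, and was called higher at 48 h in U937-CTR, by 1.58 (1.16 to 2.01). NOX3, NOX4 and NOX5 were listed at 0 in all 9 libraries.

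Of 10 enzymes that use or remove superoxide and peroxide over the filter, SOD2, the mitochondrial superoxide dismutase, was called higher in U937-AE at 48 h, by 1.0 (0.89 to 1.13), and CAT, catalase, lower, by -1.11. SOD2 lies at the 2-fold threshold and CAT just past it, and none of the 10 was called in U937-CTR or U937-EG at 48 h. The name SOD2 has 2 identifiers, and the values are of that with the highest mean FPKM. Of all genes over the filter, 17.3% were called higher and 11.3% lower in U937-AE at 48 h. These shares were 8.00% and 2.99% in U937-CTR, and 10.8% and 2.54% in U937-EG. CLCN3, a chloride-proton exchanger of endosomes, went from 5.85 to 13.2 FPKM in U937-AE, a change of 1.17. HVCN1, the proton channel that balances the oxidase's charge, did not exceed 0.0705 FPKM in any library. MPO, myeloperoxidase, measured 0.154 to 0.780 FPKM.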
